A study of Marchantia polymorpha with 18 samples.

Results

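In the liverwort Marchantia polymorpha, 144 of the 13220 genes tested were at least 2-fold lower in mock-treated Mpdes6fad5 plants than in mock-treated Tak-1 plants while mock-treated Mpcoi1 plants stayed within 0.5 log2 units of Tak-1. These 144 genes are described here, first in the samples that chose them and then in wounded plants, which the rule used only in its filter on level. Levels are in CPM, read counts scaled to library size, and differences are between group means of log2(CPM + 1), so a value of -1 is a 2-fold fall on that scale and the change of weakly expressed genes is understated. A gene was tested if it reached 1 CPM in at least 3 of the 18 libraries, and 20574 genes were listed in all. Because the mock values of Mpdes6fad5, Mpcoi1 and Tak-1 chose the genes, they are given below as a description, with no test.

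RNA was sequenced from Mpdes6fad5, a double mutant of the fatty acid desaturase genes MpDES6 and MpFAD5, from Mpcoi1, a mutant of the jasmonate receptor gene, and from Tak-1, the male wild-type accession. Each genotype was sampled after wounding with tweezers and after mock treatment, with 3 biological replicates per group and 6 to 8 plants pooled in each. Plants were 3 weeks old, and the tissue is labelled as leaflets while the growth description names apical pieces without gemma cups. The treatment label gives 2 h, whereas tissue is elsewhere said to have been frozen at 90 min. The labels give neither the lesions of the mutants nor the number of lines behind each one.

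Polyunsaturated fatty acids are built by desaturases and elongases, and they are both membrane lipids and the raw material of oxylipins, the oxidised signals made after wounding. MpDES6 and MpFAD5 desaturate fatty acids that feed such signals, DES6 on the way to the very long chains and FAD5 on short chains in the plastid. In Marchantia the receptor COI1 binds dinor-OPDA isomers, where flowering plants use the isoleucine conjugate of jasmonic acid, and binding leads to the loss of JAZ repressors. The comparison asks which genes are low in the desaturase mutant and not in the receptor mutant, before and after wounding.

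Sequencing depth was 19382332 to 26303510 gene-assigned reads, at which a gene with 0 reads may still have up to 0.107 to 0.158 CPM by counting error alone, with the library setting the value. Transcripts of the mutated genes were still present in their mutants, MpDES6 (Mp6g17330) at 27.5 to 33.0 CPM in wounded Mpdes6fad5 against 34.7 to 46.4 CPM in wounded Tak-1, MpFAD5 (Mp3g10660) at 283 to 301 against 488 to 600.2 CPM, and MpCOI1 (Mp2g26590) at 20.4 to 26.6 CPM in wounded Mpcoi1 against 63.4 to 72.4 CPM. The JAZ repressor gene MpJAZ (Mp6g06230), a readout of the pathway, stood at 117 to 121 CPM in wounded Mpdes6fad5, 24.6 to 27.3 CPM in wounded Mpcoi1 and 155 to 192 CPM in wounded Tak-1. Marker genes of oil body cells, rhizoids, antheridia, the apical notch, gemma cups and air pores were summed per library, and 1 of these 17 genes, MpCLE1, is among the 144.

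In unwounded plants the 144 genes were lower in Mpdes6fad5 by a median of -1.24, with quartiles of -1.43 and -1.10, against a median of 0.0059 over all genes tested. The largest falls were -3.29 and -3.23, and 10 genes were at least 4-fold lower. In mock Mpcoi1 the median difference of the same genes from Tak-1 was -0.21, and 114 of the 144 lay below 0, so the limit of 0.5 left room for small falls in the receptor mutant. The limit of -1 was passed by 289 genes, which is 2.19% of those tested. Of these, 138 were also lower by 0.5 or more in mock Mpcoi1 and 7 were higher by that much. The mock groups did not overlap for any of the 144 genes, a property shared by 26.8% of all tested genes and partly fixed by the choice. With the direction turned round, the same limits held 236 genes.

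The genes covered a wide range of abundance. Their mean level in mock Tak-1 ran between 1.26 and 5190 CPM with a median of 33.3 CPM, and 38 genes were at 100 CPM or more. Together they took 0.994% to 1.04% of the reads in wounded Mpdes6fad5 and 1.15% to 1.23% in mock Mpdes6fad5. In Mpcoi1 they took 1.99% to 2.17% of the reads in wounded and 2.54% to 2.63% in mock plants. The share was 2.17% to 2.32% in wounded Tak-1 and 2.66% to 2.87% in mock Tak-1. Every Mpdes6fad5 library lay below every library of the other genotypes, also after wounding. Since whole pieces of plants were sequenced, fewer cells of a type and less RNA per cell cannot be told apart. The genes just inside the limit of the fall were MpABCC12, MpNPF24 and Mp2g17240, with -1.0035, -1.0030 and -1.0016, and those just outside were Mp1g13540, Mp6g04110 and MpDWF1-like, with -0.9997, -0.9993 and -0.9922. At the limit set for Mpcoi1, MpOMT3, Mp5g04560 and MpGID1L5 lay just inside with -0.489, -0.490 and -0.490, and Mp8g12940, Mp5g04610 and Mp4g10160 just outside with -0.502, -0.514 and -0.522.

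**Figure D1:**
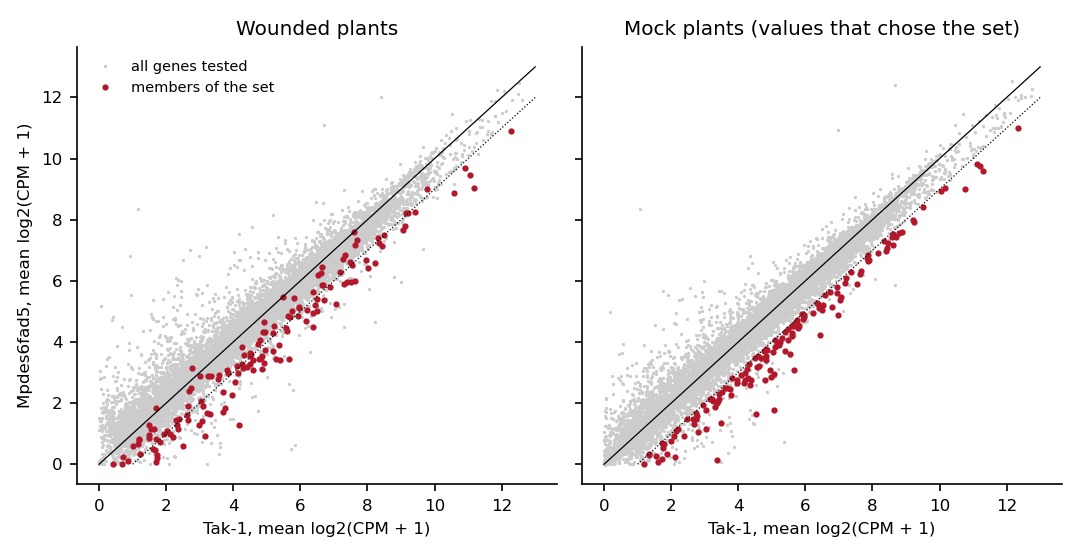
Mean log2(CPM + 1) in Mpdes6fad5 (vertical) against Tak-1 (horizontal), wounded plants on the left and mock plants on the right. Grey points are all genes tested, red points the 144 genes, the solid line equality and the dotted line a 2-fold fall; in mock plants the red points lie below the dotted line by choice, and in wounded plants the median distance from equality was -1.02.

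After wounding, most of the genes were still lower in Mpdes6fad5 than in Tak-1, while Mpcoi1 mostly remained near Tak-1. The 9 wounded libraries entered the rule only through the filter of 1 CPM in at least 3 of the 18 libraries. In these 9 libraries 117 of the 144 genes were lower in Mpdes6fad5 than in Tak-1 and 26 did not pass (limma, Benjamini-Hochberg adjusted p under 0.05 over all 13220 genes). That is 81.2% of the genes, against 22.5% of all tested genes called lower in this comparison. The only gene called higher was Mp3g20310, against 21.1% of all genes, and its call was lost without any 1 of 5 libraries. At least 2-fold lower and called were 71 of the 144, against 1.99% of all genes. By limma 0 members were at least 2-fold higher and called, against 3.90% of all genes, and 1 was higher at an unadjusted p under 0.05, against 25.8%. All 3 wounded Mpdes6fad5 libraries lay below all 3 wounded Tak-1 libraries for 122 genes, against 27.3% of all genes. The median difference was -1.02, with quartiles of -1.37 and -0.74, against 0.0081 over all genes tested.

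The direct comparison of the mutants after wounding gave a like count. Wounded Mpdes6fad5 was lower than wounded Mpcoi1 for 110 genes and higher for 2, with 32 not passing, against 20.8% and 21.0% of all tested genes called lower and higher. At least 2-fold lower and called were 59 genes, against 0.991% of all genes. The median difference was -0.92. The count of 2 higher genes became 1 without wounded Mpcoi1 replicate 2 or 3 and without wounded Mpdes6fad5 replicate 1 or 3. Between wounded Mpcoi1 and wounded Tak-1, 21 genes were lower and 4 higher, and 119 did not pass, against 9.50% and 5.64% of all genes. Without wounded Tak-1 replicate 3 the count of lower genes was 32, and without wounded Mpcoi1 replicate 2 the count of higher genes was 1. Over all tested genes these settings gave 1553 lower, beside 1256 with every library, and 513 higher, beside 746. The wounded Mpcoi1 libraries lay below those of Tak-1 without overlap for 27 genes and above them for 7, against 15.3% and 16.2% of all genes. The median difference of Mpcoi1 was -0.098, against 0.028 over all genes. These comparisons share libraries, so their values are set side by side and no relation between them is drawn.

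**Figure D2:**
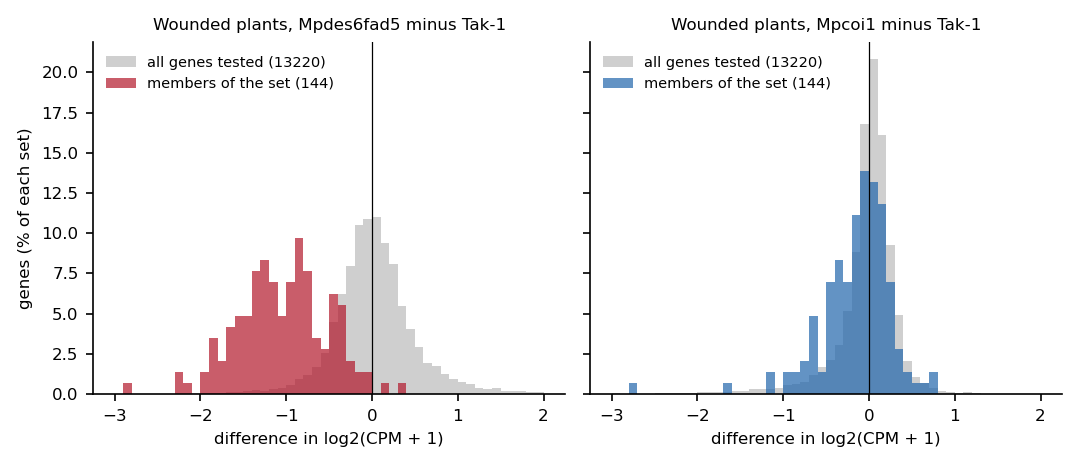
Differences in log2(CPM + 1) in wounded plants, Mpdes6fad5 minus Tak-1 on the left and Mpcoi1 minus Tak-1 on the right, as percent of genes in bins. Coloured bars are the 144 genes and grey bars all genes tested; the coloured bars centre on -1.02 on the left and on -0.098 on the right.

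Of the 144 genes, 46 had a symbol in the reference table and 98 had none. Among those with a symbol 34 were called lower in wounded Mpdes6fad5 than in wounded Tak-1, and among those without one 83. Over all tested genes 22.5% were called lower. The share was not computed separately for all genes with and without a symbol, so nothing is read from the split. Genes for transport proteins and cell wall enzymes were the most numerous of the named classes, but the lists differ in size. Transport gave 11 of 158 tested genes and cell wall enzymes 8 of 148. Hormone genes gave 3 of 37 and terpenoid genes 2 of 20, beside 144 of 13220 over all genes. No member was found among 123 genes of phenolic metabolism, 50 of glutathione and redox metabolism, 60 of desiccation and 31 of the cell cycle. By the share over all genes, lists of these sizes would hold few members, so nothing is read from their absence.

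Transport proteins made up 11 of the 144 genes, out of 158 tested genes of this class. They include plasma membrane proton pumps, which energise uptake, ammonium transporters and ABC transporters. After wounding 6 of the 11 were lower in Mpdes6fad5 than in Tak-1 and the other 5 did not pass (limma); the 11 had a median of -0.74. Over the whole class 39 genes were lower, 28 higher and 91 not called, with a median of -0.055.

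The proton pump gene MpHA18 (Mp3g12400) had the largest fall of a transport gene. It had 3.36, 3.71 and 4.53 CPM in wounded Mpdes6fad5, 15.7, 18.1 and 16.8 CPM in wounded Mpcoi1 and 19.0, 10.6 and 15.8 CPM in wounded Tak-1. The mock levels were 5.78, 9.23 and 7.53 CPM in Mpdes6fad5, 47.3, 40.9 and 53.3 CPM in Mpcoi1 and 51.4, 46.1 and 51.3 CPM in Tak-1. All Mpdes6fad5 libraries were below all others of the same treatment, and the Mpcoi1 and Tak-1 libraries overlapped. The wounded difference from Tak-1 was -1.70 ± 0.18 (SE, n = 3 libraries per group; limma adjusted p = 5.75e-05) and that from Mpcoi1 -1.88 ± 0.18 (limma adjusted p = 2.5e-05). Its neighbours MpHA5 (Mp3g12380) and MpHA14 (Mp3g12390), also proton pump genes, had wounded differences of -0.60 ± 0.26 and -0.33 ± 0.12 that did not pass (limma adjusted p = 0.0784 and 0.0505). MpHA14 passed without wounded Tak-1 replicate 3 (limma adjusted p = 0.00849), without wounded Mpcoi1 replicate 1 (0.0493) and without wounded Mpcoi1 replicate 3 (0.0365). In wounded plants MpHA14 stood at 76.4 ± 5.33 CPM in Mpdes6fad5, 108 ± 14.0 CPM in Mpcoi1 and 97.4 ± 17.1 CPM in Tak-1 (SD, n = 3 each).

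Ammonium transporter genes went different ways after wounding. MpAMT2.3 (Mp4g12460) had 1.33, 1.62 and 1.42 CPM in wounded Mpdes6fad5, 3.54, 4.91 and 5.43 CPM in wounded Mpcoi1 and 8.70, 8.00 and 4.44 CPM in wounded Tak-1, a difference from Tak-1 of -1.67 ± 0.22 (limma adjusted p = 0.000187). Its mock difference was -1.11. MpAMT1.4 (Mp8g05280) was lower as well, at 13.7, 16.2 and 17.1 CPM in wounded Mpdes6fad5 and 36.5, 30.8 and 16.9 CPM in wounded Tak-1 (limma adjusted p = 0.0267), although the lowest Tak-1 library lay within the range of Mpdes6fad5. MpAMT1.2 (Mp6g08310), by contrast, had 167, 214 and 203 CPM in wounded Mpdes6fad5, 262, 274 and 257 CPM in wounded Mpcoi1 and 203, 236 and 153 CPM in wounded Tak-1. The Mpdes6fad5 libraries lay within the range of Tak-1, and the difference was -0.006 ± 0.14 (limma adjusted p = 0.976). In mock plants the same gene had 85.0, 105 and 107 CPM in Mpdes6fad5, 168, 169 and 179.9 CPM in Mpcoi1 and 216, 250.4 and 227 CPM in Tak-1.

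Among ABC transporters, MpABCG7 (Mp2g16720) had like differences in both treatments, at -1.14 in wounded and -1.14 in mock plants. It had 32.3, 33.5 and 30.8 CPM in wounded Mpdes6fad5, 60.7, 58.9 and 64.9 CPM in wounded Mpcoi1 and 78.0, 73.3 and 65.2 CPM in wounded Tak-1 (limma adjusted p = 4.17e-06 against Tak-1). MpABCG16 (Mp3g16700) had 0.487, 0.927 and 0.611 CPM in wounded Mpdes6fad5 and 2.69, 2.93 and 2.07 CPM in wounded Tak-1 (-1.09 ± 0.18, limma adjusted p = 0.000752). MpABCC12 (Mp5g13220), of the subfamily that includes vacuolar conjugate pumps, was lower in both mutants after wounding, at -0.80 in Mpdes6fad5 (limma adjusted p = 2.55e-05) and -0.60 in Mpcoi1 (limma adjusted p = 0.000283). MpABCG4 (Mp8g12130) came close to Tak-1 after wounding without overlapping it, at 86.5, 87.7 and 86.7 CPM in Mpdes6fad5 and 91.9, 95.9 and 109 CPM in Tak-1 (-0.18 ± 0.08, limma adjusted p = 0.0729). It was called lower without wounded Tak-1 replicate 1 (-0.23, limma adjusted p = 0.0492). MpNPF24 (Mp5g08940), of the nitrate and peptide transporter family, had a wounded difference of -0.27 ± 0.16 that did not pass (limma adjusted p = 0.191).

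Further genes for ion transport stood outside the class as it was defined by symbols. MpPTB2, MpPTB3 and MpPTB5 belong to the phosphate transporter B family, sodium-coupled phosphate carriers of algae and early land plants. MpPTB3 (Mp4g16590) had 0.929, 1.02 and 1.78 CPM in wounded Mpdes6fad5, 6.31, 8.98 and 8.14 CPM in wounded Mpcoi1 and 4.96, 4.56 and 2.99 CPM in wounded Tak-1. The 3 groups did not overlap, with Mpdes6fad5 lowest and Mpcoi1 highest, and Mpcoi1 exceeded Tak-1 by 0.78 ± 0.20 (limma adjusted p = 0.0247). Against Tak-1 the Mpdes6fad5 difference was -1.20 ± 0.20 for MpPTB3 (limma adjusted p = 0.000914) and -0.83 ± 0.24 for MpPTB2 (limma adjusted p = 0.0179). MpPTB5 (Mp4g16610) was near the detection limit in wounded Mpdes6fad5, at 0.221, 0.0464 and 0.254 CPM, against 0.738, 1.26 and 0.132 CPM in wounded Tak-1. Its difference of -0.49 ± 0.24 did not pass (limma adjusted p = 0.125), but did without wounded Tak-1 replicate 3 (-0.76, limma adjusted p = 0.0102). MpHKT (Mp7g13910), of a family of sodium and potassium carriers, had 0.885, 1.07 and 1.02 CPM in wounded Mpdes6fad5 and 3.37, 4.93 and 2.16 CPM in wounded Tak-1 (limma adjusted p = 0.00837).

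Cell wall enzymes numbered 8 of the 144 genes, out of 148 tested. After wounding 6 of the 8 were lower in Mpdes6fad5 than in Tak-1, with a median of -0.71. Of the 148 genes 42 were lower, 14 higher and 92 not called, with a median of -0.13. These genes showed both directions of wound response. The pectin methylesterase genes MpCE8.14 (Mp8g09330) and MpCE8.12 (Mp6g15150), whose products trim methyl groups from pectin, were higher in wounded than in mock plants of every genotype.

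MpCE8.14 had 60.8, 57.1 and 53.9 CPM in wounded Mpdes6fad5, 60.2, 68.4 and 62.7 CPM in wounded Mpcoi1 and 104, 79.3 and 118 CPM in wounded Tak-1. Its mock levels were 11.9, 16.1 and 15.2 CPM in Mpdes6fad5, 43.3, 42.3 and 43.5 CPM in Mpcoi1 and 33.4, 35.1 and 36.4 CPM in Tak-1. The wounded Mpcoi1 libraries lay below those of Tak-1 and overlapped with Mpdes6fad5, although mock Mpcoi1 was above mock Tak-1. The difference from Tak-1 was -0.78 ± 0.12 in wounded Mpdes6fad5 (limma adjusted p = 0.000628) and -0.63 ± 0.12 in wounded Mpcoi1 (limma adjusted p = 0.00591). MpCE8.12 was lower in wounded Mpdes6fad5 at -1.10 (limma adjusted p = 9.06e-05) and in wounded Mpcoi1 at -0.50 (limma adjusted p = 0.0228).

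MpGH16.8 (Mp2g17820), of the family that holds xyloglucan-modifying enzymes, reached 119, 109 and 112 CPM in wounded Mpdes6fad5, against 166, 124 and 197 CPM in wounded Tak-1. Its mock levels were 25.6 ± 1.70 CPM in Mpdes6fad5 and 53.5 ± 8.08 CPM in Tak-1 (SD, n = 3 each). The wounded difference of -0.48 ± 0.15 passed narrowly (limma adjusted p = 0.0225) and did not pass without wounded Tak-1 replicate 1 (0.0654), wounded Mpdes6fad5 replicate 2 (0.0692) or wounded Mpdes6fad5 replicate 3 (0.0615). MpPL1.3 (Mp3g01000), a pectate lyase gene, went the other way with wounding and had 53.2, 54.9 and 63.7 CPM in wounded Mpdes6fad5, 114, 115 and 98.9 CPM in wounded Mpcoi1 and 127, 111 and 73.4 CPM in wounded Tak-1 (-0.81 ± 0.17, limma adjusted p = 0.00293). MpGH16.41 (Mp8g10370) was lower at -0.58 ± 0.10 (limma adjusted p = 0.0011). MpGH19.7 (Mp4g20450), of the chitinase family, had overlapping libraries, with 5.93, 12.2 and 6.66 CPM in wounded Mpdes6fad5 and 13.02, 11.2 and 43.6 CPM in wounded Tak-1, and did not pass (limma adjusted p = 0.0541). Without wounded Tak-1 replicate 1 (0.0476), wounded Tak-1 replicate 2 (0.0292) or wounded Mpdes6fad5 replicate 2 (0.0421) MpGH19.7 passed at these limma adjusted p-values, and it also passed with all 18 libraries, median-of-ratios rescaling or quantile normalization. MpGH17.7 (Mp2g12240), of the beta-glucanase family, did not pass (limma adjusted p = 0.118).

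Class III peroxidases, secreted enzymes that cross-link or loosen walls with hydrogen peroxide, gave 4 of the 144 genes out of 121 tested. MpPOD52 (Mp5g01640) had 2.79, 2.83 and 2.19 CPM in wounded Mpdes6fad5, 11.4, 15.2 and 7.25 CPM in wounded Mpcoi1 and 17.98, 9.48 and 11.0 CPM in wounded Tak-1. In mock plants MpPOD52 had 8.12, 6.98 and 7.30 CPM in Mpdes6fad5, 27.7, 19.5 and 19.5 CPM in Mpcoi1 and 31.6, 25.9 and 32.1 CPM in Tak-1. Mpdes6fad5 was below the other genotypes in every library of either treatment, at -1.90 ± 0.26 against wounded Tak-1 (limma adjusted p = 0.000263). MpPOD82 (Mp5g07230) was lower as well, at -1.02 ± 0.21 (limma adjusted p = 0.00283). MpPOD167 (Mp8g09590) reached 152, 199 and 137 CPM in wounded Mpdes6fad5, overlapping with the 188, 147 and 319.9 CPM of wounded Tak-1 (limma adjusted p = 0.247). MpPOD94 (Mp5g12120) was low in every wounded group, at 0.635 ± 0.551 CPM in Mpdes6fad5 and 1.28 ± 0.488 CPM in Tak-1 (SD, n = 3 each), and did not pass (limma adjusted p = 0.115). Among the replicates left out it passed without wounded Mpdes6fad5 replicate 3 (0.0216), and it also passed with quantile normalization (0.0377). Of the 121 peroxidase genes, 29 were lower and 25 higher in wounded Mpdes6fad5, with a median of -0.0050.

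Genes of lipid, terpenoid and specialised metabolism included the lipoxygenase gene MpLOX16, the only member among 46 oxylipin and lipid genes tested. Of these 46 genes 16 were lower and 5 higher in wounded Mpdes6fad5 than in wounded Tak-1, with a median of -0.17. Lipoxygenases add oxygen to polyunsaturated fatty acids. MpLOX16 (Mp2g16000) had 9.16, 9.50 and 10.7 CPM in wounded Mpdes6fad5, 21.7, 23.5 and 17.0 CPM in wounded Mpcoi1 and 51.6, 38.7 and 27.2 CPM in wounded Tak-1. The 3 wounded groups did not overlap and stood in that order, at -1.85 ± 0.20 for Mpdes6fad5 (limma adjusted p = 5.63e-05) and -0.85 ± 0.20 for Mpcoi1 (limma adjusted p = 0.0143) against Tak-1. In mock plants MpLOX16 had 22.7, 18.8 and 22.2 CPM in Mpdes6fad5, 51.3, 48.9 and 51.2 CPM in Mpcoi1 and 49.9, 61.0 and 52.5 CPM in Tak-1, so that there Mpcoi1 was close to Tak-1.

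MpKOL1 and MpKAOL1, cytochrome P450 genes of the route from ent-kaurene to gibberellin-type diterpenoids, were the members among 20 terpenoid genes tested, of which 7 were lower and 4 higher in wounded Mpdes6fad5 than in wounded Tak-1, with a median of 0.029. MpKOL1 (Mp3g18320) had 9.87, 9.83 and 8.90 CPM in wounded Mpdes6fad5, 20.4, 26.8 and 18.6 CPM in wounded Mpcoi1 and 52.5, 46.7 and 27.4 CPM in wounded Tak-1. MpKAOL1 (Mp4g23680) had 8.10, 7.51 and 8.50 CPM in wounded Mpdes6fad5, 10.02, 8.45 and 8.41 CPM in wounded Mpcoi1 and 18.4, 23.5 and 19.3 CPM in wounded Tak-1. Both genes were lower in both wounded mutants. For MpKOL1 the differences from Tak-1 were -1.99 ± 0.21 in Mpdes6fad5 (limma adjusted p = 5.51e-05) and -0.88 ± 0.21 in Mpcoi1 (limma adjusted p = 0.0173). For MpKAOL1 they were -1.24 ± 0.12 (limma adjusted p = 2.87e-05) and -1.10 ± 0.12 (limma adjusted p = 8.72e-05), and the difference between the mutants did not pass (-0.14 ± 0.12, limma adjusted p = 0.375). MpGID1L5 (Mp8g06760), named after the gibberellin receptor of flowering plants, was lower in wounded Mpdes6fad5 at -0.98 ± 0.11 (limma adjusted p = 8.74e-05) and in wounded Mpcoi1 at -0.70 ± 0.11 (limma adjusted p = 0.00171).

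Cytochrome P450 and glycosyltransferase genes gave 4 members out of 118 tested, of which 3 were lower in wounded Mpdes6fad5 than in wounded Tak-1 and all 4 lower than in wounded Mpcoi1. Against Tak-1 the whole class had 35 lower, 26 higher and 57 uncalled genes, with a median of 0.024. MpCYP829-like15 (Mp2g19660) had 1.68, 2.83 and 2.49 CPM in wounded Mpdes6fad5, 11.5, 11.9 and 6.54 CPM in wounded Mpcoi1 and 17.2, 12.1 and 8.18 CPM in wounded Tak-1 (-1.98 ± 0.27, limma adjusted p = 0.000264). The glycosyltransferase gene MpUGT19 (Mp4g16860) had 2.79, 1.34 and 2.75 CPM in wounded Mpdes6fad5 and 11.0, 8.32 and 6.07 CPM in wounded Tak-1 (-1.52 ± 0.23, limma adjusted p = 0.000507). MpCYP704-like12 (Mp4g01410), of a family that hydroxylates long-chain fatty acids in Arabidopsis, was lower at -0.87 ± 0.18 (limma adjusted p = 0.00339). MpCYP77A6 (Mp6g18270), of a family with a part in cutin synthesis in Arabidopsis, was the exception against Tak-1. It had 1.15, 1.16 and 1.42 CPM in wounded Mpdes6fad5, 3.97, 5.22 and 3.65 CPM in wounded Mpcoi1 and 2.37, 2.98 and 1.23 CPM in wounded Tak-1. Mpcoi1 was above both other genotypes, by 0.75 ± 0.21 against Tak-1 (limma adjusted p = 0.0329), and the Mpdes6fad5 difference from Tak-1 passed only without wounded Tak-1 replicate 3 among the replicates left out (-0.71, limma adjusted p = 0.00572; 0.0887 with it). The O-methyltransferase gene MpOMT3 (Mp1g28130) had 7.57, 7.97 and 7.43 CPM in wounded Mpdes6fad5, 29.3, 28.4 and 21.1 CPM in wounded Mpcoi1 and 28.2, 24.5 and 32.1 CPM in wounded Tak-1 (-1.75 ± 0.13, limma adjusted p = 9.07e-06).

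Among regulators, Mp1R-MYB17 (Mp4g21300), a transcription factor with a single MYB repeat, was the only member among 211 transcription factor genes tested, of which 52 were lower and 44 higher in wounded Mpdes6fad5 than in wounded Tak-1, with a median of -0.0045. It had 6.504, 13.2 and 10.9 CPM in wounded Mpdes6fad5, 56.9, 67.3 and 36.4 CPM in wounded Mpcoi1 and 59.2, 55.1 and 37.2 CPM in wounded Tak-1. In mock plants it had 7.02, 6.66 and 6.69 CPM in Mpdes6fad5, 25.4, 27.9 and 25.5 CPM in Mpcoi1 and 33.8, 30.0 and 34.2 CPM in Tak-1. Its wound response was 0.47 in Mpdes6fad5, 0.96 in Mpcoi1 and 0.59 in Tak-1, and the Mpdes6fad5 libraries were lowest in both treatments. The wounded difference from Tak-1, -2.22 ± 0.27 (limma adjusted p = 0.00013), was the largest of the members with a symbol, beside -2.29 ± 0.27 from Mpcoi1 (limma adjusted p = 9.49e-05).

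Hormone genes gave 3 members out of 37 tested, and each was lower in wounded Mpdes6fad5 than in wounded Tak-1. Over the 37 genes 14 were lower, 8 higher and 15 not called, with a median of -0.019. MpLOG (Mp1g00270) activates cytokinins and MpCKX2 (Mp5g10910) degrades them. MpCKX2 had 3.05, 3.198 and 3.31 CPM in wounded Mpdes6fad5, 7.46, 7.07 and 7.96 CPM in wounded Mpcoi1 and 6.96, 7.34 and 7.22 CPM in wounded Tak-1, groups with little spread and a difference from Tak-1 of -0.97 ± 0.10 (limma adjusted p = 5.76e-05). MpLOG had 46.9, 48.7 and 49.5 CPM in wounded Mpdes6fad5 and 95.9, 92.8 and 60.3 CPM in wounded Tak-1 (-0.74 ± 0.17, limma adjusted p = 0.00526). Genes for enzymes of opposite effect on cytokinins were thus both low.

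MpCLE1 (Mp6g07050), the gene of a peptide hormone that restrains growth at the apical notch, had 5.97, 5.66 and 6.26 CPM in wounded Mpdes6fad5, 12.4, 10.3 and 9.03 CPM in wounded Mpcoi1 and 14.0, 10.2 and 8.49 CPM in wounded Tak-1. Mock levels of MpCLE1 were 3.81, 3.53 and 4.24 CPM in Mpdes6fad5, 11.4, 12.4 and 9.55 CPM in Mpcoi1 and 11.9, 13.1 and 13.3 CPM in Tak-1. The wounded difference from Tak-1 was -0.75 ± 0.17 (limma adjusted p = 0.00484), with no overlap between the groups. MpCLE1 is also 1 of 3 markers of gemma cups and gemmae used here. Their summed level was 31.7 to 36.1 CPM in wounded and 30.9 to 31.5 CPM in mock Mpdes6fad5, 37.3 to 41.2 and 40.5 to 46.0 CPM in Mpcoi1, and 35.2 to 38.3 and 41.6 to 46.4 CPM in Tak-1. This sum contains MpCLE1, chosen for its low level in mock Mpdes6fad5, so the mock sums are partly fixed by the choice. Of the other gemma markers, MpKAR averaged 26.2 CPM in wounded Mpdes6fad5 and 22.97 CPM in wounded Tak-1, and MpGCAM1 averaged 1.99 and 3.29 CPM. In mock plants MpKAR averaged 27.2 CPM in Mpdes6fad5, 31.9 CPM in Mpcoi1 and 30.3 CPM in Tak-1. MpGCAM1 was there at 0.048 CPM in Mpdes6fad5, 0 in Mpcoi1 and 0.876 CPM in Tak-1. The part of cup tissue in these values was not tested. Markers of the apical notch summed to 56.7 to 63.9 CPM in wounded Mpdes6fad5 and 48.0 to 63.2 CPM in wounded Tak-1, and those of rhizoids to 20.7 to 23.6 and 21.7 to 25.5 CPM, so these sums overlapped. The notch markers went different ways. MpCLE2 and MpTAA averaged 47.8 and 8.92 CPM in wounded Mpdes6fad5, against 42.7 and 5.79 CPM in wounded Tak-1. MpYUC2 averaged 2.69 CPM in wounded Mpdes6fad5 and 4.98 CPM in wounded Tak-1. Oil body markers, mostly MpC1HDZ, summed to 137 to 146 CPM in wounded Mpdes6fad5, 86.5 to 90.9 CPM in wounded Mpcoi1 and 152 to 217 CPM in wounded Tak-1. MpC1HDZ averaged 117 CPM in wounded Mpdes6fad5 and 175 CPM in wounded Tak-1, against 63.7 CPM in mock Tak-1. The other oil body markers went the opposite way. MpSYP12B, MpERF13 and MpABCG1 averaged 4.18, 2.33 and 17.0 CPM in wounded Mpdes6fad5 and 3.26, 1.82 and 14.0 CPM in wounded Tak-1. Markers of the male germline summed to 9.21 to 12.8 CPM in wounded Mpdes6fad5 and 5.25 to 9.20 CPM in wounded Tak-1, with the protamine gene MpPRM at 0 in both, and the air pore marker MpNOP1 had 183 to 199 and 192 to 214 CPM. Of the male germline markers, MpDUO1 and MpGEX2 averaged 4.69 and 5.94 CPM in wounded Mpdes6fad5 and 4.065 and 2.39 CPM in wounded Tak-1. MpTUA5 went the other way, at 0.486 CPM in wounded Mpdes6fad5 and 0.84 CPM in wounded Tak-1. Whether cell composition took part in any difference was not tested.

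The remaining classes were small. Cupins, barrel-shaped proteins that include seed storage and defence proteins, gave 3 members, all lower in wounded Mpdes6fad5 than in wounded Tak-1. They belong to a defence list of 65 tested genes, of which 12 were lower, 13 higher and 40 not called, with a median of 0.099. MpCupin84 (Mp5g13870) had 23.01, 21.6 and 19.8 CPM in wounded Mpdes6fad5, 37.2, 49.7 and 37.6 CPM in wounded Mpcoi1 and 77.9, 65.6 and 108 CPM in wounded Tak-1. The groups did not overlap and Mpcoi1 lay between the others, with -1.89 ± 0.17 for Mpdes6fad5 (limma adjusted p = 1.98e-05) and -0.98 ± 0.17 for Mpcoi1 (limma adjusted p = 0.00258) against Tak-1. Its neighbour MpCupin83 (Mp5g13860) was lower in wounded Mpdes6fad5 at -0.97 ± 0.20 (limma adjusted p = 0.0032) and MpCupin68 (Mp5g00920) at -0.75 ± 0.16 (limma adjusted p = 0.00331). The receptor-like kinase gene MpRLK-Pelle_L-LEC17 (Mp5g05650), with a lectin domain by its family name, was near 1 CPM and did not pass (limma adjusted p = 0.158). It passed without wounded Tak-1 replicate 3 (0.0165) and with quantile normalization (0.0455). Over the 128 kinase and phosphatase genes tested, 31 were lower and 15 higher, with a median of -0.065.

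**Figure D3:**
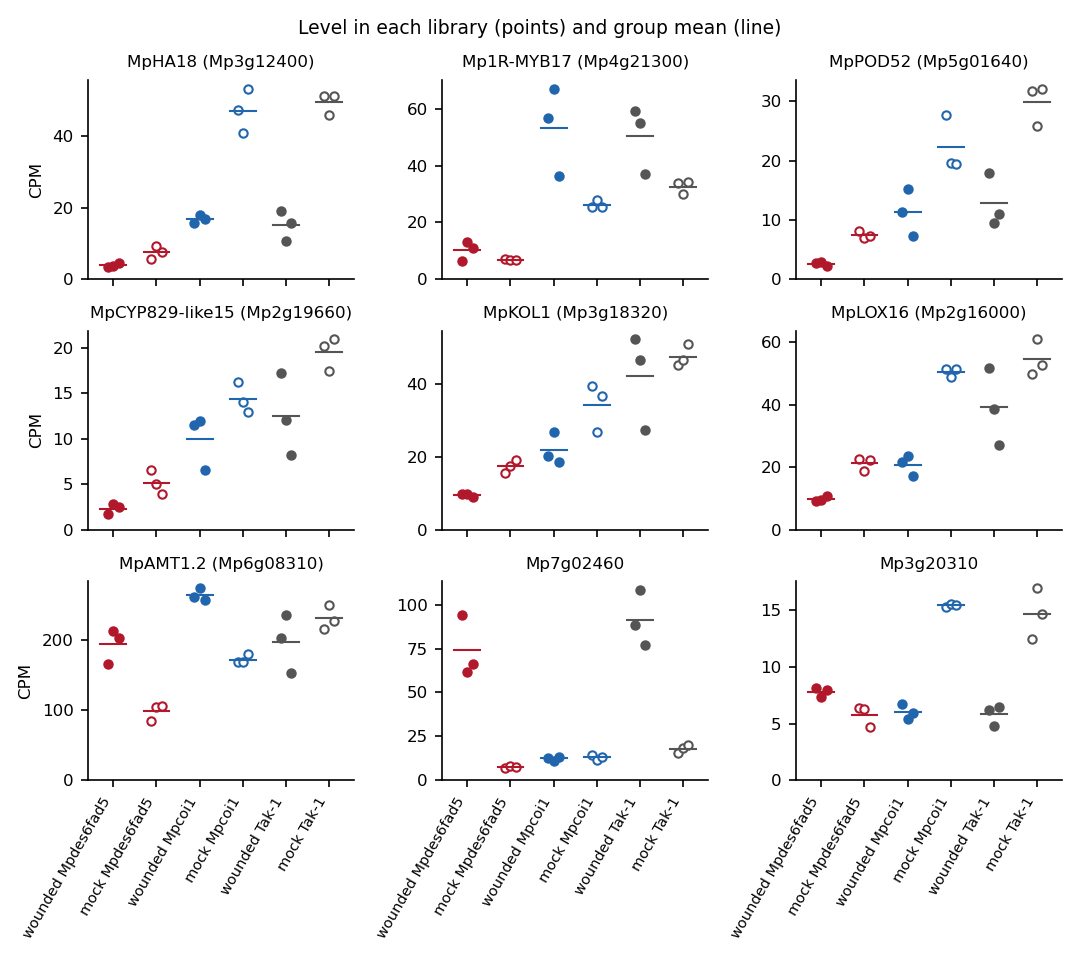
Level in CPM (vertical, linear, each panel with its own scale) of 9 of the genes in each of the 18 libraries; points are libraries, filled for wounded and open for mock plants, and lines are group means of 3. In the panels of MpHA18, Mp1R-MYB17 and MpPOD52 every red point (Mpdes6fad5) lies below the blue (Mpcoi1) and grey (Tak-1) points of the same treatment, and in the panel of Mp7g02460 wounded Mpdes6fad5 and Tak-1 lie far above wounded Mpcoi1.

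Among the genes without a symbol were the largest differences, and no function is known for them from the table used. Mp1g07780 had 1.37, 1.48 and 1.53 CPM in wounded Mpdes6fad5, 20.0, 21.4 and 21.7 CPM in wounded Mpcoi1 and 16.8, 16.5 and 18.3 CPM in wounded Tak-1. In mock plants it had 2.23, 2.60 and 1.55 CPM in Mpdes6fad5, 24.3, 26.6 and 24.3 CPM in Mpcoi1 and 23.6, 21.4 and 21.4 CPM in Tak-1. It was the most strongly lowered gene after wounding, at -2.89 ± 0.10 against Tak-1 (limma adjusted p = 3.72e-08) and -3.16 ± 0.10 against Mpcoi1 (limma adjusted p = 4.24e-09), and wounding itself shifted it little, at -0.33 in Mpdes6fad5, -0.24 in Mpcoi1 and -0.34 in Tak-1.

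The adjacent genes Mp5g12330 and Mp5g12340 had the largest mock falls. Mp5g12340 had 0.398, 1.11 and 1.32 CPM in wounded Mpdes6fad5, 7.64, 10.5 and 9.74 CPM in wounded Mpcoi1 and 9.75, 8.04 and 6.20 CPM in wounded Tak-1. The mock libraries of Mp5g12340 had 3.13, 1.96 and 2.35 CPM in Mpdes6fad5, 25.8, 21.5 and 30.2 CPM in Mpcoi1 and 37.6, 26.2 and 35.5 CPM in Tak-1. Mp5g12330 was at 0, 0 and 0.153 CPM in wounded Mpdes6fad5, with 0 reads in 2 of the libraries, against 1.71, 3.80 and 2.18 CPM in wounded Mpcoi1 and 3.74, 1.86 and 1.45 CPM in wounded Tak-1. Both genes were lower in wounded Mpdes6fad5 than in wounded Tak-1, at -2.22 ± 0.21 (limma adjusted p = 3.17e-05) and -1.62 ± 0.26 (limma adjusted p = 0.000819), and Mp5g12340 had lower levels in wounded than in mock plants of every genotype.

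Mp5g09160 and Mp8g04800 also had large mock falls, of -2.19 and -2.13. After wounding Mp5g09160 had 14.2, 14.9 and 12.7 CPM in Mpdes6fad5 and 46.6, 36.8 and 36.8 CPM in Tak-1 (-1.45 ± 0.12, limma adjusted p = 1.65e-05). Mp8g04800 had 1.55, 1.99 and 3.103 CPM in wounded Mpdes6fad5 and 10.4, 8.79 and 7.61 CPM in wounded Tak-1 (-1.65 ± 0.18, limma adjusted p = 6.11e-05). Both pairs of groups were far apart relative to their spread. Mp7g05890, an abundant gene, stood at 510.3, 536 and 529 CPM in wounded Mpdes6fad5, 1806, 2161 and 1564 CPM in wounded Mpcoi1 and 2593, 2328 and 1995 CPM in wounded Tak-1 (-2.12 ± 0.13, limma adjusted p = 2.08e-06). Mp5g11280, a weakly expressed one, had 0.664, 0.417 and 0.509 CPM in wounded Mpdes6fad5 and 4.22, 3.72 and 6.16 CPM in wounded Tak-1 (-1.88 ± 0.22, limma adjusted p = 0.000107).

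Many of the genes lay near each other. In the order of the listed identifiers, 47 of the 144 (32.6%) had another member within 5 places, in 17 runs, of which 6 held 3 or more members. The like share was not computed for other sets of genes, so how unusual 32.6% is was not tested. Chromosome 5 held 25 members, which is 17.4% of them beside 12.1% of all tested genes, and chromosome 1 held 16, which is 11.1% beside 17.4%. The 37 tested genes of the V chromosome held none, and nothing is read from so few genes. Of the 47 genes in runs, 40 were lower in wounded Mpdes6fad5 than in wounded Tak-1, and of the 97 others 77 were, against 22.5% of all tested genes. Neighbouring genes can be near-identical copies whose reads the counting may split, and their sequences were not used here, so values within a run may not be independent.

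The longest run, Mp3g13570 to Mp3g13620, held 6 members in 6 consecutive identifiers, and all 6 were lower in wounded Mpdes6fad5, with a median of -1.33. Mp3g13620 had 88.7, 104 and 94.9 CPM in wounded Mpdes6fad5, 216, 209 and 284 CPM in wounded Mpcoi1 and 267, 253 and 392 CPM in wounded Tak-1 (-1.63 ± 0.16, limma adjusted p = 3.77e-05). Mp3g13600 and Mp3g13610 had like profiles, at 140.3 ± 10.2 and 85.0 ± 5.30 CPM in wounded Mpdes6fad5 against 348 ± 60.2 and 258 ± 40.7 CPM in wounded Tak-1 (SD, n = 3 each). Mp3g13570, Mp3g13580 and Mp3g13590 were less abundant, with wounded means between 10.4 ± 3.11 and 35.02 ± 7.16 CPM in Mpdes6fad5 and between 27.9 ± 5.82 and 62.6 ± 13.8 CPM in Tak-1. These last 3 genes were higher in wounded than in mock Mpdes6fad5, by 0.28, 0.28 and 0.62, whereas Mp3g13600, Mp3g13610 and Mp3g13620 were lower, at -0.40, -0.66 and -0.58.

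The run Mp7g06710 to Mp7g06770 held 5 members among 7 identifiers and the most abundant gene of all, Mp7g06710. That gene had 1811, 1888 and 2112 CPM in wounded Mpdes6fad5, 4459, 5034 and 4811 CPM in wounded Mpcoi1 and 5065, 4900.3 and 4847 CPM in wounded Tak-1 (-1.35 ± 0.11, limma adjusted p = 1.01e-05). Its mock levels were 1817, 2117 and 2155 CPM in Mpdes6fad5, 5418, 5099 and 5026 CPM in Mpcoi1 and 5055, 4936 and 5581 CPM in Tak-1. Wounding left these levels nearly where they were, with responses of -0.07, -0.12 and -0.07 in Mpdes6fad5, Mpcoi1 and Tak-1. All 5 members were lower in wounded Mpdes6fad5 than in wounded Tak-1 and than in wounded Mpcoi1, with medians of -1.35 and -1.30. The 2 genes of the run outside the set, Mp7g06720 and Mp7g06740, had mock differences of -0.99 and -2.03 in Mpdes6fad5; Mp7g06740 missed the rule because mock Mpcoi1 was higher than mock Tak-1 by 0.64.

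Smaller runs behaved alike within themselves to different degrees. In Mp4g08460 to Mp4g08480 all 3 members were lower in wounded Mpdes6fad5, at -1.03, -1.37 and -1.52. In Mp5g04510 to Mp5g04590 all 4 members were lower, with a median of -1.32, while their neighbour Mp5g04530 was higher in wounded Mpdes6fad5 by 0.87 ± 0.11 (limma adjusted p = 0.000167). Mp5g04540, Mp5g04550 and Mp5g04580 of this run had mock differences of -2.17, -2.14 and -1.13 in Mpdes6fad5. They missed the rule because mock Mpcoi1 was low as well, at -0.75, -0.99 and -0.60. The 4 members lay at -0.25, -0.49, -0.35 and -0.43 in mock Mpcoi1, and Mp5g04520 differed little in either mutant. Of the proton pump run, MpHA18 alone was called against Tak-1. Of the phosphate transporter run, Mp4g16550, MpPTB2 and MpPTB3 were called, and MpPTB4 (Mp4g16560), between Mp4g16550 and MpPTB2, was no member with a mock difference of -0.97. The pair Mp1g17070 and Mp1g17080 was lower at -1.55 and -1.49, whereas MpPOD167 and its neighbour Mp8g09600 were not called.

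**Figure D4:**
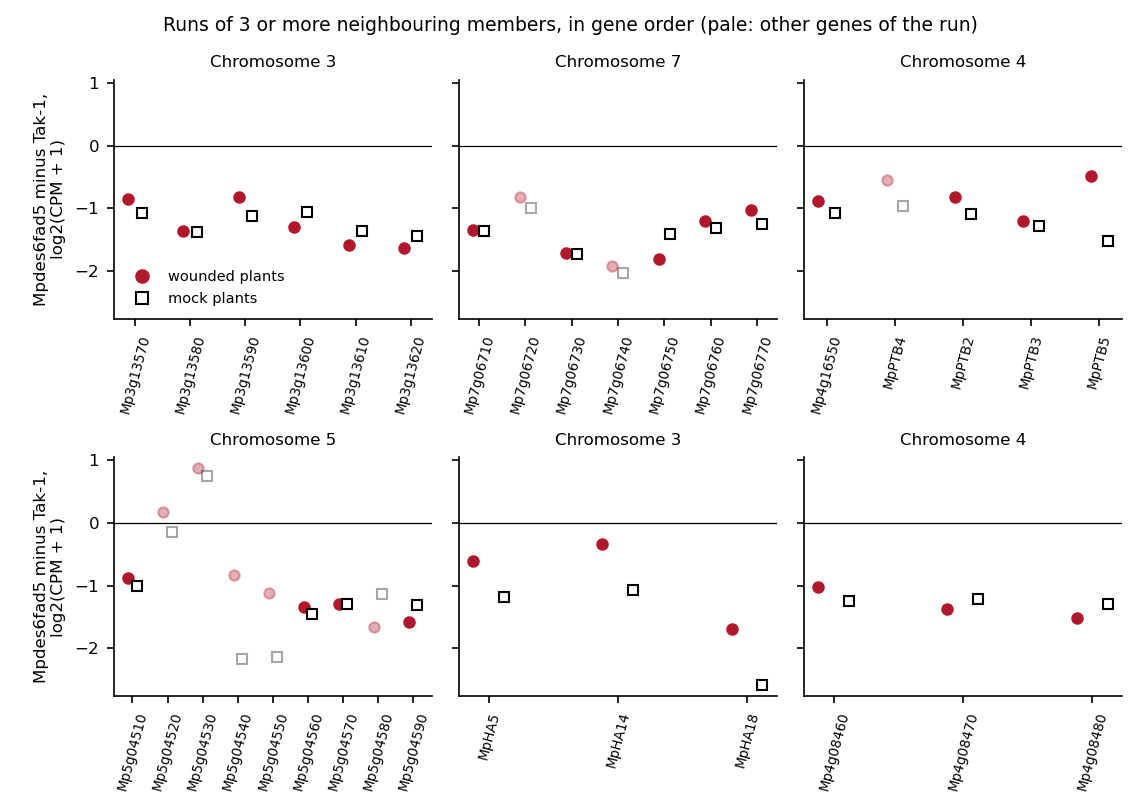
Difference in log2(CPM + 1) between Mpdes6fad5 and Tak-1 (vertical) for the genes of the 6 runs with 3 or more members, in the order of their identifiers (horizontal); red circles are wounded plants, open squares mock plants, and pale symbols genes of the run that are not members. In the runs Mp3g13570 to Mp3g13620 and Mp7g06710 to Mp7g06770 every gene is below 0 in both treatments, and in the run on chromosome 5 Mp5g04530 is above 0.

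The wound responses of these genes are given with no test, since each uses mock libraries of the choice. The median response, wounded minus mock, was -0.21 in Mpdes6fad5, -0.45 in Mpcoi1 and -0.42 in Tak-1, beside -0.026, -0.051 and -0.063 over all genes tested. All wounded libraries lay below all mock libraries for 59 of the 144 genes in Mpdes6fad5, 86 in Mpcoi1 and 78 in Tak-1, against 34.4%, 34.1% and 31.7% of all genes. They lay above them for 30, 13 and 15 genes, against 32.3%, 28.0% and 26.1%. At least 2-fold lower in wounded than in mock plants were 14 genes in Mpdes6fad5, 20 in Mpcoi1 and 27 in Tak-1, against 2.58%, 2.40% and 2.76% of all genes. At least 2-fold higher were 9, 3 and 5 genes, against 10.3%, 7.38% and 9.10%. The mock levels that chose the genes enter these responses, so no order of the genotypes is read from them. The size of the difference between Mpdes6fad5 and Tak-1 was smaller after wounding than in mock plants for 109 genes and larger for 35. The like split was not computed for all genes. After wounding 26 of the 144 genes lay within 0.5 of 0. Over all genes tested the wounded difference had quartiles of -0.23 and 0.26, so most of all genes lay within that limit. A choice by large mock differences favours smaller ones in any second set of samples. No effect of wounding is therefore read from these counts.

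**Figure D5:**
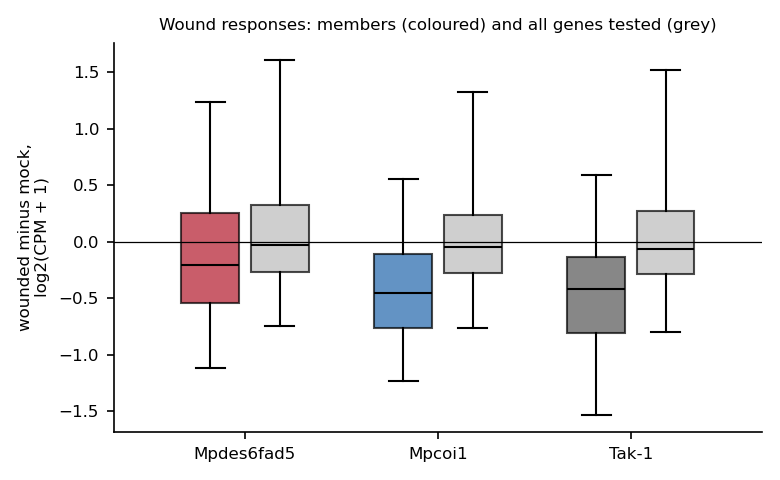
Wound response, wounded minus mock group mean of log2(CPM + 1) (vertical), in Mpdes6fad5, Mpcoi1 and Tak-1; coloured boxes are the 144 genes and grey boxes all genes tested, with quartiles, the median as a line, and whiskers at the 5th and 95th percentiles. The coloured medians are -0.21, -0.45 and -0.42, below the grey ones of -0.026, -0.051 and -0.063.

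The wounded Mpdes6fad5 libraries lay wholly below those of wounded Tak-1 for 122 of the 144 genes and wholly above for 1. Over all genes tested the shares were 27.3% and 26.6%. The libraries overlapped for the other 21 genes, and 2 of these follow. Mp4g09410, chosen after its values were seen, had the largest response, 4.003 in Mpdes6fad5, 2.62 in Mpcoi1 and 2.83 in Tak-1. It had 43.7, 42.6 and 44.2 CPM in wounded Mpdes6fad5 and 33.3, 35.3 and 70.3 CPM in wounded Tak-1, against 1.51, 2.53 and 1.41 CPM in mock Mpdes6fad5 and 5.74, 5.17 and 4.87 CPM in mock Tak-1. The wounded groups overlapped and the difference was -0.0038 ± 0.29 (limma adjusted p = 0.992). Mp2g09820, also chosen after its values were seen, had 24.1, 24.9 and 22.7 CPM in wounded Mpdes6fad5 and 34.2, 29.1 and 24.3 CPM in wounded Tak-1, against 6.38, 5.56 and 5.37 CPM in mock Mpdes6fad5 and 28.7, 23.2 and 28.0 CPM in mock Tak-1 (wounded difference -0.27 ± 0.12, limma adjusted p = 0.104). A p that misses the threshold does not show that the levels were equal.

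Mp3g20310 was the gene called higher in wounded Mpdes6fad5. It had 8.14, 7.37 and 7.94 CPM in wounded Mpdes6fad5, 6.70, 5.39 and 5.96 CPM in wounded Mpcoi1 and 6.17, 4.83 and 6.47 CPM in wounded Tak-1. In mock plants it had 6.42, 6.27 and 4.71 CPM in Mpdes6fad5, 15.3, 15.6 and 15.4 CPM in Mpcoi1 and 12.5, 16.9 and 14.7 CPM in Tak-1. Mpdes6fad5 was lowest in mock plants and highest in wounded plants without overlap, while Mpcoi1 and Tak-1 overlapped in both treatments. The difference of 0.38 ± 0.13 (limma adjusted p = 0.0352) did not pass without wounded Tak-1 replicate 1 (0.0537) or 2 (0.127), nor without wounded Mpdes6fad5 replicate 1 (0.0974), 2 (0.0554) or 3 (0.0850). MpGH17.26 (Mp7g16830), of the beta-glucanase family, had 42.6, 43.1 and 42.4 CPM in wounded Mpdes6fad5 and 68.8, 50.1 and 49.0 CPM in wounded Tak-1 and was called lower at -0.36 ± 0.12 (limma adjusted p = 0.0303). That call was lost without wounded Tak-1 replicate 1 (0.0828) and without wounded Mpdes6fad5 replicate 1 (0.0759), 2 (0.0682) or 3 (0.0751).

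Of the genes lower in wounded Mpcoi1 than in wounded Tak-1, Mp7g02460 had the largest difference. It had 93.9, 61.9 and 66.3 CPM in wounded Mpdes6fad5, 12.8, 11.3 and 13.3 CPM in wounded Mpcoi1 and 88.3, 108 and 77.2 CPM in wounded Tak-1. In mock plants it had 6.98, 8.41 and 7.44 CPM in Mpdes6fad5, 14.3, 11.5 and 13.5 CPM in Mpcoi1 and 15.7, 18.5 and 20.0 CPM in Tak-1. Wounded Mpcoi1 overlapped with mock Mpcoi1 and lay below the other genotypes, at -2.76 ± 0.16 against Tak-1 (limma adjusted p = 5.57e-07). Mpdes6fad5 differed from Tak-1 at -0.31 ± 0.16 (limma adjusted p = 0.137), which passed without wounded Tak-1 replicate 3 (0.0451) or wounded Mpdes6fad5 replicate 1 (0.0199), and exceeded Mpcoi1 by 2.46 ± 0.16 (limma adjusted p = 1.6e-06).

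Mp2g26010 and Mp3g07160 followed in size between wounded Mpcoi1 and wounded Tak-1. Mp2g26010 had 59.5, 53.6 and 63.9 CPM in wounded Mpdes6fad5, 52.8, 51.6 and 41.3 CPM in wounded Mpcoi1 and 169, 155 and 147 CPM in wounded Tak-1. Both mutants were far below Tak-1, at -1.40 ± 0.10 in Mpdes6fad5 (limma adjusted p = 6.29e-06) and -1.68 ± 0.10 in Mpcoi1 (limma adjusted p = 8.53e-07). In mock plants Mp2g26010 had 38.7, 35.6 and 34.5 CPM in Mpdes6fad5, 67.1, 68.1 and 64.1 CPM in Mpcoi1 and 92.6, 85.5 and 96.5 CPM in Tak-1. Mp3g07160 had 239.9, 180.3 and 196 CPM in wounded Mpdes6fad5, 235, 261 and 242 CPM in wounded Mpcoi1 and 546, 508 and 544 CPM in wounded Tak-1, with differences from Tak-1 of -1.38 in Mpdes6fad5 (limma adjusted p = 4.82e-06) and -1.11 in Mpcoi1 (limma adjusted p = 1.43e-05). At least 2-fold lower and called in wounded Mpcoi1 were 4 genes, these 3 and MpKAOL1, against 3.09% of all genes tested. The 4 genes called higher in wounded Mpcoi1 than in wounded Tak-1 were MpPTB3, MpCYP77A6, Mp1g20260 (0.44) and Mp7g08280 (0.37).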

How the data were processed

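Total RNA of 18 libraries (6 groups of 3) was sequenced. Per the submitters' processing notes, reads passed through Trim Galore, HISAT2, HTSeq and edgeR; the sources used here give no version, genome build or strand setting, so reads of overlapping or antisense genes cannot be told apart. The authors deposited log2 values: CPM of rescaled library sizes plus a prior count, with a common floor of -3.50. CPM was 2 to the power of the value minus the floor (0.0886 CPM). Values up to 1000 reads were whole multiples of 1 read, within 0.01, in 100% of cases.

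From these, log2(CPM + 1) of the 9 wounded libraries was fitted with limma 3.58.1 (R 4.3.3): genotype means without a block, eBayes with a mean trend, Benjamini-Hochberg adjustment over 13220 genes, calls at an adjusted p under 0.05. The fit was tested on simulated data. Python 3.11.15 with pandas 2.3.3, numpy 2.4.6 and matplotlib 3.10.9 made the tables and figures. Gene symbols were looked up by identifier in a table for assembly MpTak2_v7.1, which matched 17641 of 20574 identifiers (142 of the 144 members); its coordinates were not used, and promoter and protein sequences were not used here.

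The members and the gene lists were chosen with earlier results of these data known, and the lists were put into symbol patterns after the symbols were seen. Genes named in the text had the largest falls in mock plants, the largest called differences between wounded groups, the highest level in a list, a place next to a limit, or a place in the 2 longest runs; others complete a list or run. Alternatives tried were added constants of 0.1 and of 5 CPM, testing every gene or those averaging 5 CPM or more, scaling by quantiles, library totals or median-of-ratios, robust eBayes, all 18 libraries in the fit, a replicate block, voom, the deposited values, leaving out each replicate, and other limits of the rule.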

Additional observations from a re-analysis of the deposited data

Results flagged for a closer look

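For 4 of the named genes the wound response ran in opposite directions in different genotypes, with all wounded libraries above all mock libraries in one genotype and below them in the other. These differences between responses rest on the mock libraries that chose the genes and were not tested. Mp3g20310 had a response of 0.38 in Mpdes6fad5, -1.23 in Mpcoi1 and -1.20 in Tak-1, so that Mpdes6fad5 exceeded Tak-1 by 1.58 and Mpcoi1 by 1.61. MpGH17.26, of the beta-glucanase family, had 0.18 in Mpdes6fad5, -0.67 in Mpcoi1 and -0.54 in Tak-1, a difference of 0.72 between Mpdes6fad5 and Tak-1 and of 0.85 between Mpdes6fad5 and Mpcoi1. MpKAOL1, of diterpenoid synthesis, had 0.25 in Mpdes6fad5, -0.40 in Mpcoi1 and 0.34 in Tak-1, which puts Mpcoi1 at -0.73 relative to Tak-1 and Mpdes6fad5 at 0.65 relative to Mpcoi1. Mp2g26010 had 0.68 in Mpdes6fad5, -0.45 in Mpcoi1 and 0.77 in Tak-1, with Mpcoi1 at -1.22 relative to Tak-1 and Mpdes6fad5 at 1.14 relative to Mpcoi1.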

How the results depend on the processing

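The count of genes lower in wounded Mpdes6fad5 than in wounded Tak-1, 117, ran from 100 (mean of at least 5 CPM, where fewer genes were tested) to 126 (quantile normalization), and 108 of the 117 were called in each of the 21 alternatives in which they were tested. Leaving out single replicates gave 111 to 124. Over all tested genes the count called lower, 2969 in the main fit, ran from 1789 (library totals) to 3388 (all 18 libraries). It was 2299 to 3161 when replicates were left out. The single gene called higher was lost without a filter (0) and with quantile normalization (0), and leaving out replicates gave 0 to 1. Over all genes these settings gave 3000, 2648 and 2120 to 3154 called higher, beside 2791 in the main fit. Between wounded Mpcoi1 and wounded Tak-1 the count of lower members was 15 to 32 when replicates were left out, against 933 to 1553 over all genes. Higher members numbered 1 without a filter, 7 with library totals and 8 with all 18 libraries, against 570, 1346 and 1352 over all genes. Leaving out replicates gave 1 to 4 higher members, against 320 to 1152 over all genes. In the main fit all genes gave 1256 lower and 746 higher. Members higher in wounded Mpdes6fad5 than in wounded Mpcoi1 were 1 without a filter, 1 with median-of-ratios rescaling and 1 to 2 when replicates were left out. Over all genes these settings gave 2983, 2562 and 2241 to 3065, beside 2780 in the main fit. The median difference of -1.02 became -1.22 with a constant of 0.1 CPM, -0.76 with 5 CPM, -1.11 with a mean of at least 5 CPM, -0.90 with library totals, -1.26 with voom and -1.22 with the deposited values. Library totals also moved the median of all genes to 0.14, so that relative to it the fall is of like size. The cause of the other changes was not tested. The rule itself gave 193 genes with a constant of 0.1 CPM, of which 132 were among the 144. A constant of 5 CPM gave 90 genes, with 82 shared, and library totals gave 107, with 100 shared. It gave 75 with the Mpcoi1 limit at 0.25 and 29 with the Mpdes6fad5 limit at -1.5. Leaving out mock replicates gave 137 to 158 genes, of which 123 to 141 were among the 144, so membership changed more than the count. Over the 64 differences of named genes, 1286 of 1336 values kept direction and side of the threshold, 31 newly passed, 19 no longer passed and 0 changed sign. With replicate number as a block, 119 members were lower in wounded Mpdes6fad5 than in wounded Tak-1, against 2865 over all genes. The deviations of same-numbered wounded libraries from their group means correlated at -0.115, -0.0823 and -0.230 between Mpdes6fad5 and Tak-1. They correlated at -0.0985, -0.0627 and -0.291 between Mpdes6fad5 and Mpcoi1, and at 0.163, 0.199 and 0.555 between Mpcoi1 and Tak-1. For differently numbered libraries the values ran from -0.495 to 0.464. Deviations in a group of 3 sum to 0, so these correlations do not settle whether the numbers pair the samples. Under the block MpHA14 (adjusted p = 0.0428, limma) and MpGH19.7 (0.0370) newly passed. Depth limits the least abundant genes, since 0 reads allow 0.107 to 0.158 CPM.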
